A study of Mus musculus with 8 samples.

Results

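Genes of glycolysis and of the hypoxia response were followed in mouse Ly6C+ classical monocytes and in their precursors, the common monocyte progenitors (cMoPs). The list held 38 genes, chosen by name for what their products do, of which 36 had a row among the 13388 gene identifiers of the deposited table. The glycolysis group had 21 genes, running from the glucose transporter Slc2a1 through the enzymes of the pathway to the lactate exporter Slc16a3. The HIF group had 15 genes, namely Hif1a, 2 prolyl hydroxylases that act on its protein, and 12 genes known as targets of the factor. Ddit4 and Adm, also listed, were not analysed here.

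All cells were wild type, came from mouse bone marrow and were sorted. They were then kept for 6 h on OP9, a mouse bone marrow stromal cell line, or on OP9-DLL1, the same stroma made to carry the Notch ligand Delta-like 1. This gave 4 groups of 2 RNA-seq libraries each: monocytes on OP9, monocytes on OP9-DLL1, cMoPs on OP9 and cMoPs on OP9-DLL1. Nothing in the labels ties the 2 libraries of a group to different mice or wells, so each p-value reflects just the scatter among these samples, which may be technical. No group without stroma and no group in low oxygen was used, so every value describes cells in coculture at a single time.

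Glycolysis splits glucose into pyruvate in the cytosol. Hexokinases trap glucose, phosphofructokinases commit it to the pathway, and the later enzymes recover ATP and NADH. Lactate dehydrogenase turns pyruvate into lactate, which the transporter encoded by Slc16a3 carries out of the cell, while pyruvate dehydrogenase sends it to mitochondria instead. HIF-1 is a transcription factor made of an oxygen-sensitive alpha subunit, encoded by Hif1a, and a stable partner encoded by Arnt. When oxygen is present, prolyl hydroxylases of the Egln family mark the alpha subunit for capture by the Vhl protein and for breakdown. The control therefore acts mostly on the protein, and messenger levels of Hif1a do not measure it. In myeloid cells HIF-1 is known for driving glycolytic genes during inflammation as well as in low oxygen.

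Depth ran from 47316323 to 62459962 reads a library, recovered from the deposited values. CPM, the unit of level here, is reads scaled to an effective size of each library, also recovered. This size was 43312371 to 66166902, so that 1 read was worth between 0.0151 and 0.0231 CPM. It was below the depth in every monocyte library and above it in every cMoP library. The summed level of 10 monocyte markers was 27987 to 45486 CPM in the monocyte libraries and 6023 to 7398 CPM in the cMoP libraries. Lyz2 alone, at 22579 to 38232 CPM, made up most of the sum in monocytes. Ly6c2 and Cx3cr1 went the other way. Ly6c2 was at 872 to 1204 CPM in monocyte libraries and 2065 to 2314 CPM in cMoP libraries, and Cx3cr1 at 2.03 to 2.49 CPM and 8.76 to 15.4 CPM. Progenitor and granule genes, of which 9 of 10 were in the table, summed to 175 to 303 CPM in monocytes and 14722 to 22033 CPM in cMoPs. Proliferation genes, 14 of 14 in the table, summed to 1029 to 1925 CPM and 4235 to 5067 CPM. The 2 libraries of monocytes on OP9 were the farthest apart, with 1125 genes differing over 2-fold between them, against 366 to 487 genes in the other groups. Genes of stromal cells, 8 of 20 in the table, summed to 6.92 to 31.3 CPM in monocyte libraries and 2.69 to 6.5 CPM in cMoP libraries. Without Pdgfrb and Vcam1 the sums were 1.97 to 29.1 CPM and 0.287 to 2.67 CPM. The part of maturity, division or carried-over stroma in the differences between cell types was not tested.

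The main difference within the list lay between the cell types. On both stromas cMoPs had more messenger for Hk1, Hk3, Gpi1, Pfkp, Tpi1, Gapdh, Pgam1 and Ldha, whereas monocytes had more for Aldoa, Eno1 and Pkm and far more for the lactate exporter Slc16a3. On OP9, 10 of the 21 genes of the glycolysis group (47.6%) were higher in cMoPs and 5 (23.8%) were lower by limma-trend at an adjusted p under 0.05. On OP9-DLL1, 13 (61.9%) were higher and 5 lower. Among all 13374 genes tested, 28.8% were higher and 27.7% lower in cMoPs on OP9, and 28.2% were higher and 29.2% lower on OP9-DLL1. The median log2 fold change (cMoPs minus monocytes) of the glycolysis group was 0.36 on OP9 and 0.53 on OP9-DLL1. In the authors' deposited table, 26 of the 36 genes passed on OP9, the same genes that passed here. On OP9-DLL1 32 passed there, the 30 that passed here with Aldoc and Ndrg1. The share of all genes that passed in the authors' table is not given for any comparison, and the shares above are from limma-trend. These counts therefore only set the calls of the list side by side. All comparisons of the cell types are of bulk samples, in which fewer cells of a type and less RNA per cell cannot be told apart.

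**Figure D1:**
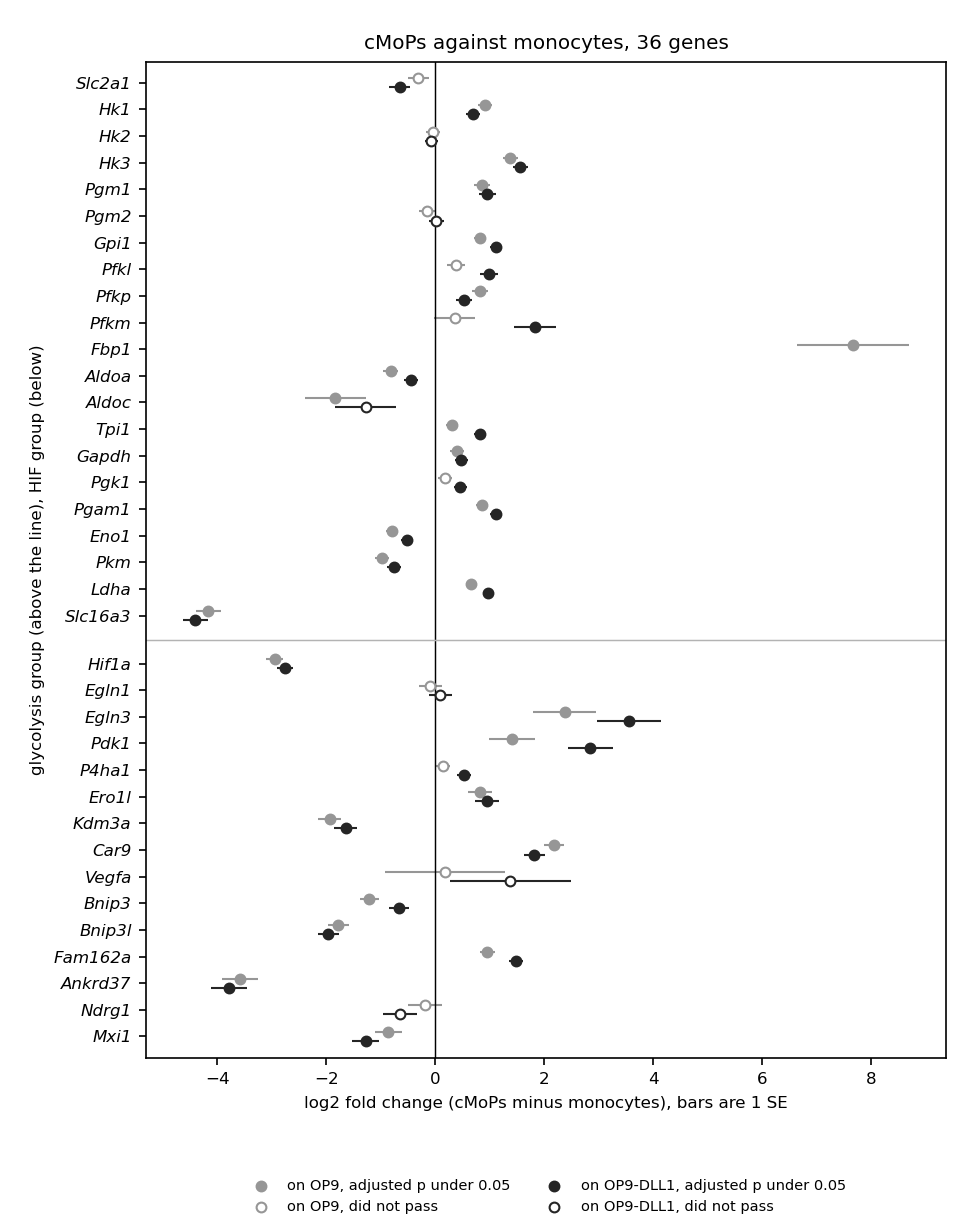
Log2 fold change (cMoPs minus monocytes, horizontal axis) of 36 genes on OP9 (grey) and on OP9-DLL1 (black), fitted by limma-trend over 8 libraries, with bars of 1 standard error and filled points for adjusted p under 0.05. Slc16a3, Hif1a and Ankrd37 lie far to the left, at -4.17, -2.95 and -3.58 on OP9, and Fbp1 far to the right at 7.68. Fbp1 has no point on OP9-DLL1, where the monocyte libraries had 0 reads.

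Glucose entry and trapping differed by gene. Slc2a1, which encodes the widely used glucose transporter GLUT1, stood at 43.6 and 66.7 CPM for monocytes on OP9 and at 59.7 and 59.7 CPM on OP9-DLL1, against 43.0 and 44.0 CPM and 35.7 and 40.7 CPM in cMoPs. The cell types overlapped on OP9 and were apart on OP9-DLL1, where Slc2a1 was 1.57-fold lower in cMoPs (log2 fold change -0.65 ± 0.19 SE, limma-trend adjusted p = 0.016). This call was lost under 3 of 18 other settings, with adjusted p up to 0.096. Hk1, the hexokinase found in most tissues, was at 34.0 to 43.0 CPM in the monocyte libraries and 60.0 to 68.9 CPM in the cMoP libraries, 1.88-fold higher in cMoPs on OP9 (limma-trend adjusted p = 0.00029). Hk3, a hexokinase of myeloid cells, was at 37.3 to 43.8 CPM and 101 to 124 CPM, and 2.60-fold higher in cMoPs on OP9 (limma-trend adjusted p = 4.5e-05). No overlap between cell types was seen for either gene. Hk2, the inducible hexokinase, was at 79.0 to 94.3 CPM in monocytes and 69.7 to 90.1 CPM in cMoPs, and its difference of -0.04 ± 0.12 on the log2 scale did not pass on OP9 (limma-trend adjusted p = 0.80).

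Divided by exonic length, the 3 hexokinase genes changed places. Hk2 made up 48.5% to 51.9% of their summed CPM per kb in monocytes on OP9 and 46.1% to 46.6% on OP9-DLL1. In cMoPs it made up 24.4% to 30.5%. Hk3 held 35.0% to 38.6% in monocytes and 55.3% to 61.3% in cMoPs, so that Hk2 led in the first cell type and Hk3 in the second in every library. Among the phosphofructokinases, Pfkl led in all 8 libraries with 56.1% to 72.2%. Pfkp followed with 24.9% to 40.5%, and the muscle form Pfkm had 1.45% to 4.81%. Exonic length here counts all exons that GENCODE draws for a gene, 6.67 kb for Pfkl and 13.4 kb for Pfkp. In CPM, not divided by length, Pfkp was above Pfkl except in monocytes on OP9 replicate 1 and cMoPs on OP9-DLL1 replicate 1. Of the summed level of Egln1 and Egln3, Egln1 held 89.7% to 98.1% in monocytes and 75.4% to 78.5% in cMoPs. Egln2, the other HIF prolyl hydroxylase gene, was on the list of HIF regulators and is not in that sum. In CPM it was above Egln1 in every library, so these are not shares of all HIF prolyl hydroxylase messenger. Aldoc gave at most 0.143% of the level of Aldoa and Aldoc together in any library. These shares are descriptions, with no test of their own.

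**Figure D2:**
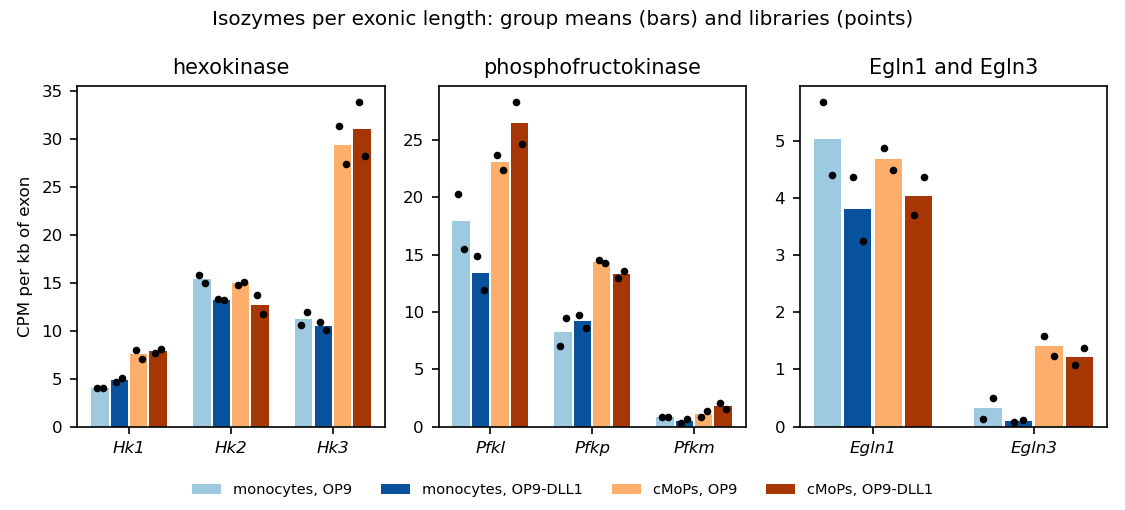
Level of 3 hexokinase genes, 3 phosphofructokinase genes and 2 HIF prolyl hydroxylase genes, Egln1 and Egln3, in CPM per kb of exon (vertical axis), with bars for the mean of each of 4 groups and points for its 2 libraries. Hk3 lies at 10.1 to 11.9 CPM per kb in the monocyte libraries and at 27.4 to 33.8 in the cMoP libraries, and Hk2 between 11.7 and 15.8 in all libraries.

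The next steps of the pathway leaned to cMoPs. Gpi1, which turns glucose 6-phosphate into fructose 6-phosphate, was at 347 to 443 CPM in monocyte libraries and 749 to 812 CPM in cMoP libraries, 1.76-fold higher in cMoPs on OP9 and 2.17-fold higher on OP9-DLL1 (limma-trend adjusted p = 0.0002 and 2.5e-05). Pfkp, the platelet form of phosphofructokinase, was at 93.8 to 131 CPM and 174 to 194 CPM, 1.76-fold higher in cMoPs on OP9 and 1.45-fold higher on OP9-DLL1. Its call on OP9-DLL1 was lost under 3 of 18 settings, with adjusted p up to 0.096. Pfkl, the liver form, led the 3 per exonic length, but in CPM it was below Pfkp in most libraries. It was at 135 and 103 CPM for monocytes on OP9 and at 99.4 and 79.6 CPM on OP9-DLL1. In cMoPs it was at 158 and 149.7 CPM on OP9 and at 189 and 165 CPM on OP9-DLL1. The cell types did not overlap on either stroma, but only the OP9-DLL1 difference passed, at 1.99-fold (limma-trend adjusted p = 0.073 on OP9 and 0.00073 on OP9-DLL1). Pfkm, at 1.21 to 6.97 CPM in all libraries, was 3.55-fold higher in cMoPs on OP9-DLL1.

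Fbp1 reads came almost wholly from cMoPs. The gene lies at chr13:62864753-62888282 of mm10 on the minus strand in GENCODE M21. It encodes fructose bisphosphatase, which runs the phosphofructokinase step in reverse during glucose synthesis. Monocyte libraries held 0 and 6 reads of Fbp1 on OP9 and 0 and 0 reads on OP9-DLL1, whereas cMoP libraries held 608 and 347 reads on OP9 and 594 and 448 on OP9-DLL1, or 6.33 to 10.4 CPM. On OP9 the fitted log2 fold change was 7.68 ± 1.03 (limma-trend adjusted p = 0.00024), which depends on the offset given to the library without reads. On OP9-DLL1 the level in cMoPs was at least 299.6-fold higher than 3 reads over the 2 monocyte libraries together. The 250 bases before its start, from chromosome 13 of the RefSeq GRCm38.p6 assembly (chr13:62888283-62888532, minus strand), are shown because this gene had the widest gap of the list, and those of Slc16a3 (chr11:120948817-120949066, plus strand) because that gene had the widest gap the other way. Both are written 5′ to 3′, with capitals for the core of the sequence bound by HIF, here ACGTG or GCGTG on either strand.
Fbp1: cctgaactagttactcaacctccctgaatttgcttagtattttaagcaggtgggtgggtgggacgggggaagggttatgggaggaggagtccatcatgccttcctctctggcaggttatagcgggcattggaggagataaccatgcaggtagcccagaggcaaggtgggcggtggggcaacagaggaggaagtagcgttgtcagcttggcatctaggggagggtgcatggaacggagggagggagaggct
Slc16a3: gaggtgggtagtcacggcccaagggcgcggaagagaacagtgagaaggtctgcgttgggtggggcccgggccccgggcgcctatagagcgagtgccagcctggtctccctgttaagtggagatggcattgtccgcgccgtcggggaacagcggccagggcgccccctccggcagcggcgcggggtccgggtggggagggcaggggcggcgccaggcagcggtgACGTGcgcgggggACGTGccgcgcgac

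The Fbp1 stretch held no such core and the Slc16a3 stretch held 2, both ACGTG. No match says only that these letters are absent from the window. The window of Slc16a3 lies inside the gene as GENCODE draws it, since GENCODE places an earlier start than the RefSeq entry used here.

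Aldoa, Eno1 and Pkm were lower in cMoPs on both stromas. Aldoa, the main aldolase, was at 5185 and 4068 CPM for monocytes on OP9 and 2569 and 2652 CPM in cMoPs, with 4238 and 3667 CPM against 2920.3 and 2908 CPM on OP9-DLL1. The monocyte libraries were above the cMoP libraries on both stromas, and Aldoa was 1.76-fold lower in cMoPs on OP9 and 1.35-fold lower on OP9-DLL1 (limma-trend adjusted p = 0.00079 and 0.02). The OP9-DLL1 call was lost under 5 of 18 settings, with adjusted p up to 0.16. Eno1, the main enolase, went from 3722 to 5238 CPM in monocyte libraries to 2723 to 2877 CPM in cMoP libraries, and was 1.74-fold lower on OP9 and 1.43-fold lower on OP9-DLL1. Pkm, the pyruvate kinase of most tissues outside the liver, was at 4085 to 5504 CPM and 2485 to 2752 CPM, and 1.98-fold and 1.69-fold lower. Of the summed CPM of the 21 genes, Aldoa, Eno1 and Pkm made up 67.2% to 72.6% in monocyte libraries and 47.6% to 50.7% in cMoP libraries. That sum itself was 16687 to 21945 CPM in monocytes and 16522 to 16825 CPM in cMoPs.

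Tpi1, Gapdh and Pgam1 were higher in cMoPs on both stromas. Tpi1, which interconverts the triose phosphates, was at 365 and 312 CPM for monocytes on OP9 and 249 and 250.1 CPM on OP9-DLL1, against 402 and 431 CPM and 449 and 441 CPM in cMoPs. It was 1.23-fold higher in cMoPs on OP9, a call lost under 10 of 18 settings (adjusted p up to 0.21), and 1.78-fold higher on OP9-DLL1 (limma-trend adjusted p = 0.0002). Gapdh, which makes NADH, was at 2298 and 2838 CPM for monocytes on OP9, 2332 and 2314 CPM on OP9-DLL1, and 3371, 3368, 3136 and 3349 CPM in the cMoP libraries. Every cMoP library was above every monocyte library, by 1.32-fold on OP9 and 1.40-fold on OP9-DLL1, with calls lost under 5 and 1 of 18 settings (adjusted p up to 0.10 and 0.07). Pgam1, the phosphoglycerate mutase, was at 117 to 148 CPM and 265 to 273 CPM, 1.82-fold and 2.17-fold higher in cMoPs (limma-trend adjusted p = 0.00014 and 2.5e-05). Pgk1, which makes ATP, was at 431 to 589 CPM and 604 to 672 CPM and passed on OP9-DLL1 alone, at 1.37-fold, a call lost under 3 settings (adjusted p up to 0.088). Gapdh is often taken as a constant reference gene, and here it differed between the cell types.

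Ldha and Slc16a3, which act one after the other in lactate production and release, differed in opposite directions. Ldha was at 1526 and 1481 CPM for monocytes on OP9 and 1146 and 1162 CPM on OP9-DLL1, against 2270.2 and 2502 CPM and 2178 and 2356 CPM in cMoPs. The cell types were apart on both stromas, and Ldha was 1.58-fold higher in cMoPs on OP9 and 1.96-fold higher on OP9-DLL1 (limma-trend adjusted p = 0.00053 and 4.6e-05). Slc16a3 (chr11:120948480-120960868, plus strand) encodes the exporter MCT4. It was at 178 and 135 CPM for monocytes on OP9 and 138 and 97.3 CPM on OP9-DLL1, against 9.34 and 7.94 CPM and 4.69 and 6.34 CPM in cMoPs. The lowest monocyte library was far above the highest cMoP library, and the log2 fold change was -4.17 ± 0.23 on OP9 and -4.41 ± 0.23 on OP9-DLL1, an 18.0-fold and a 21.2-fold lower level (limma-trend adjusted p = 1.4e-06 and 7.6e-07). Slc16a1, the related transporter MCT1 of the wider glycolysis list, went the other way, from 0.965 to 2.72 CPM in monocyte libraries to 15.5 to 23.7 CPM in cMoP libraries, 8.48-fold higher on OP9 (limma-trend adjusted p = 1.7e-05).

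The remaining genes of the group were phosphoglucomutases and a minor aldolase. Pgm1 was at 14.5 to 17.9 CPM in monocyte libraries and 26.8 to 35.3 CPM in cMoP libraries, 1.82-fold higher on OP9 and 1.94-fold higher on OP9-DLL1. Pgm2, at 47.7 to 62.2 CPM in all libraries, did not pass on either stroma. Aldoc, the brain aldolase, was at 0.584 to 5.88 CPM and was 3.57-fold lower in cMoPs on OP9 (limma-trend adjusted p = 0.019). That call was lost under 2 of the 17 settings in which Aldoc was tested, both with a library left out. Several of these enzymes have near-identical copies, so reads may be split between them. Eno1b, a copy of Eno1, was listed at 48.7 to 138 CPM and Aldoart1, a copy of Aldoa, at 9.59 to 19.7 CPM, and the levels of Eno1 and Aldoa are therefore uncertain. How many reads were split was not tested. Exons of Pfkp share 748 bases with Pitrm1 on the opposite strand, and those of Pgm1 share 398 bases with Itgb3bp. The library kit did not mark strand, so reads in those stretches cannot be told apart. Pitrm1 stood at 22.5 to 30.1 CPM in monocytes and 68.4 to 78.7 CPM in cMoPs, and Itgb3bp at 1.85 to 3.78 CPM and 9.15 to 12.9 CPM. Both were higher in cMoPs, as were Pfkp and Pgm1, and how many shared reads entered those levels was not tested.

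The HIF group split more evenly. On OP9, 5 of its 15 genes were higher in cMoPs and 6 lower, and on OP9-DLL1 6 were higher and 6 lower, beside the background shares given above. The median log2 fold change was -0.09 on OP9 and 0.09 on OP9-DLL1. Neither sign was stable: without monocytes on OP9 replicate 1 the OP9 median was 0.09, and the OP9-DLL1 median was -0.44 without monocytes on OP9-DLL1 replicate 2 and -0.02 without cMoPs on OP9-DLL1 replicate 2. Hif1a itself (chr12:73901375-73947530 of mm10 in GENCODE M21, plus strand) was at 132 and 133 CPM for monocytes on OP9, 94.2 and 84.1 CPM on OP9-DLL1, 15.2 and 19.2 CPM in cMoPs on OP9, and 13 and 13.2 CPM on OP9-DLL1. All monocyte libraries were far above all cMoP libraries. The log2 fold change was -2.95 ± 0.15 on OP9 and -2.76 ± 0.15 on OP9-DLL1, a 7.75-fold and 6.78-fold lower level in cMoPs (limma-trend adjusted p = 1e-06 and 9.2e-07). An antisense gene, Gm15283, shares 330 exonic bases with Hif1a and was listed at 0.0702 to 5.26 CPM.

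The genes for oxygen sensing differed in part. Egln1, a HIF prolyl hydroxylase gene, was at 11.6 to 20.4 CPM across libraries and did not pass between cell types. Egln2 was above it in CPM in every library, at 40.7 to 65.7 CPM in monocytes and 30.8 to 38.1 CPM in cMoPs. Egln3, a hydroxylase gene that HIF itself is known to induce, had 16 and 72 reads in monocytes on OP9, 11 and 16 reads on OP9-DLL1, and 162 to 280 reads in the cMoP libraries. In CPM this was 0.226 to 1.34 against 2.85 to 4.23, with no overlap, and 5.21-fold higher in cMoPs on OP9 and 11.8-fold higher on OP9-DLL1 (limma-trend adjusted p = 0.0069 and 0.0007). The filter at 5 CPM left Egln3 out. Its OP9 call was lost under 1 of the 17 settings in which it was tested, without cMoPs on OP9 replicate 1.

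Car9, Pdk1 and Ero1l were higher in cMoPs on both stromas, and P4ha1 on OP9-DLL1. Car9, a carbonic anhydrase at the cell surface that helps cells keep their pH, was at 3.09 and 3.66 CPM for monocytes on OP9, 6.30 and 7.18 CPM on OP9-DLL1, 16.0 and 14.6 CPM in cMoPs on OP9, and 26 and 21.8 CPM on OP9-DLL1. No group overlapped another, and Car9 was 4.53-fold higher in cMoPs on OP9 and 3.53-fold higher on OP9-DLL1 (limma-trend adjusted p = 2e-05 and 4.9e-05). Pdk1, the kinase that switches off pyruvate dehydrogenase, was at 3.44 and 2.92 CPM, 0.595 and 1.65 CPM, 9.25 and 7.70 CPM, and 7.17 and 7.26 CPM in the same order. The cell types were apart on both stromas, by 2.66-fold on OP9 and 7.20-fold on OP9-DLL1 (limma-trend adjusted p = 0.017 and 0.00036), and the OP9 call was lost under 3 of 18 settings with adjusted p up to 0.095. Ero1l, an oxidase that helps form disulphide bonds in the endoplasmic reticulum, was at 4.6 to 8.43 CPM in monocyte libraries and 8.94 to 13.6 CPM in cMoP libraries, and 1.78-fold and 1.93-fold higher; on OP9 this was lost under 2 of 18 settings (adjusted p up to 0.076). P4ha1, a prolyl hydroxylase of collagen, was at 39.2 to 63.7 CPM and 58.2 to 72.3 CPM, and passed on OP9-DLL1 alone at 1.45-fold, a call lost under 2 settings (adjusted p up to 0.062).

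Other targets were, like Hif1a, higher in monocytes. Ankrd37, an ankyrin repeat protein, was at 8.46 to 13.1 CPM in monocyte libraries and 0.562 to 1.01 CPM in cMoP libraries, 12.0-fold lower in cMoPs on OP9 and 13.9-fold lower on OP9-DLL1 (limma-trend adjusted p = 2.4e-05 and 1.4e-05). Kdm3a, a histone demethylase, was at 11.2 to 14.9 CPM and 3.32 to 4.35 CPM, 3.82-fold and 3.12-fold lower. Bnip3l, a receptor that marks mitochondria for removal, was at 110.3 to 215 CPM and 38.8 to 55.7 CPM, 3.43-fold and 3.89-fold lower. Its relative Bnip3 was at 22.4 to 40.8 CPM and 14.6 to 16.7 CPM, 2.31-fold and 1.59-fold lower, the OP9-DLL1 call being lost under 2 of 18 settings with adjusted p up to 0.091. Mxi1, an antagonist of Myc, was at 9.69 to 11.0 CPM and 3.49 to 5.83 CPM, 1.82-fold and 2.42-fold lower, and its OP9 call was lost under 2 settings (adjusted p up to 0.089). Fam162a, a mitochondrial protein, stood against these with 18.3 to 28.9 CPM in monocytes and 52.1 to 57.6 CPM in cMoPs, 1.94-fold and 2.81-fold higher (limma-trend adjusted p = 0.00032 and 1.9e-05). Ndrg1, at 9.24 to 26.2 CPM, and Vegfa did not pass on either stroma. Vegfa, the angiogenic growth factor, had 55 and 40 reads in monocytes on OP9, 39 and 2 on OP9-DLL1, 71 and 62 in cMoPs on OP9, and 38 and 23 on OP9-DLL1, so its level was at most 1.27 CPM.

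Per exonic length, the 9 most abundant genes of the list belonged to the glycolysis group. Averaged over the groups, Aldoa was at 1211 CPM per kb, Pkm at 739, Gapdh at 696, Eno1 at 676 and Ldha at 552. The most abundant gene of the HIF group was Fam162a at 46.4 CPM per kb, then Bnip3l at 28.1, P4ha1 at 14.3 and Hif1a at 10.7, and the least abundant was Vegfa at 0.178. In monocytes on OP9, Slc16a3 at 29.5 and Hif1a at 22.5 CPM per kb were both above Hk2 at 15.4, and in cMoPs on OP9 both were below it, at 1.62 and 2.92 against 15.0.

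Set against OP9 alone, few of these genes differed in monocytes on the stroma carrying Delta-like 1. Car9 rose and P4ha1, Pdk1 and Fam162a fell, and all 4 belong to the HIF group. This was 1 of 36 genes higher (2.78%), against 3.36% of all genes, and 3 of 36 lower (8.33%), against 3.03%. No gene of the glycolysis group passed by limma-trend, and 6 of its 21 genes were lower at an unadjusted p under 0.05 and none higher, against 10.6% of all genes lower and 11.2% higher. voom weights on the recovered reads called 2 of them lower, Ldha and Tpi1, and voom with sample quality weights called 0. The share of all genes called by voom is not given, here or in the comparisons below. More widely, 27 of 36 genes had a negative log2 fold change (OP9-DLL1 minus OP9), 75.0%, against 48.5% of all genes. The median was -0.22 for the glycolysis group, -0.52 for the HIF group and 0.01 for all genes. The 2 OP9-DLL1 libraries lay wholly below the 2 OP9 libraries for 18 of the 36 genes and wholly above for 4, against 23.4% and 24.3% of all genes.

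Car9 went from 3.09 and 3.66 CPM in monocytes on OP9 to 6.30 and 7.18 CPM on OP9-DLL1, with no overlap. The log2 fold change was 1.0 ± 0.19, a 1.99-fold rise (limma-trend adjusted p = 0.019). P4ha1 went from 61.6 and 63.7 CPM to 45.6 and 39.2 CPM, falling 1.48-fold (log2 fold change -0.57 ± 0.13, limma-trend adjusted p = 0.038). Both P4ha1 libraries on OP9-DLL1 were below both on OP9, and so were those of the next 2 genes. Fam162a went from 27.9 and 28.9 CPM to 18.3 and 20.7 CPM, falling 1.46-fold (log2 fold change -0.54 ± 0.13, limma-trend adjusted p = 0.047). Pdk1 went from 149 and 157 reads to 29 and 85 reads, or from 3.44 and 2.92 CPM to 0.595 and 1.65 CPM, falling 3.17-fold (log2 fold change -1.67 ± 0.42, limma-trend adjusted p = 0.049). Pdk1 thus had the widest change of the 4 and also the widest spread between its OP9-DLL1 libraries. An antisense gene, Gm12454, shares 214 exonic bases with Car9. It was at 1.39 and 1.28 CPM for monocytes on OP9 and 0.944 and 1.53 CPM on OP9-DLL1, overlapping where Car9 did not. Wdr5b, on the strand opposite to Fam162a and sharing 168 exonic bases with it, was at 8.77 and 9.69 CPM and at 14.4 and 10.0 CPM.

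**Figure D3:**
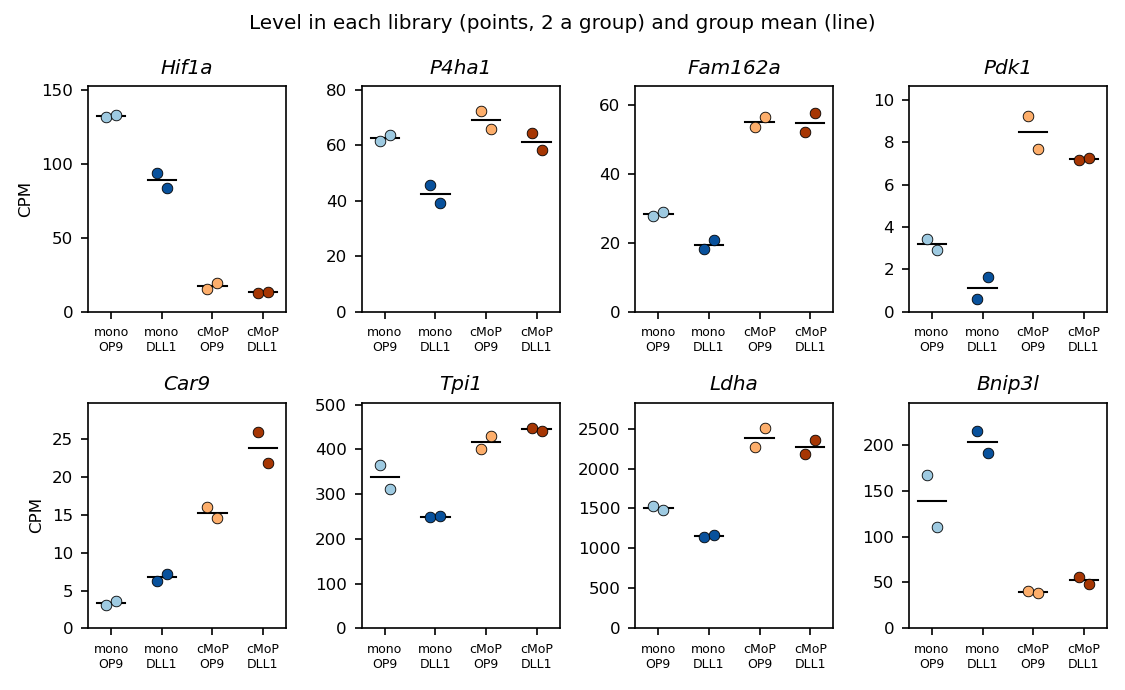
CPM (vertical axis, from 0) of 8 genes in each of the 8 libraries, as points by group with the group mean as a line. In monocytes on OP9-DLL1 the points of Hif1a, P4ha1, Fam162a, Pdk1, Tpi1 and Ldha lie below those on OP9 and the points of Car9 and Bnip3l lie above, while of these differences those of P4ha1, Fam162a, Pdk1 and Car9 had a limma-trend adjusted p under 0.05.

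None of the 4 calls held under all 18 other settings. Car9 was lost under 5 (adjusted p up to 0.16), P4ha1 under 9 (up to 0.26), Pdk1 under 10 (up to 0.18) and Fam162a under 10 (up to 0.23), and none changed direction. Which genes of the list passed, and how many, changed with the library left out. The share of all genes passing in those fits is not given, so their counts are left out here. With 1 monocyte library left out, the median log2 fold change was -0.29 to -0.14 for the glycolysis group. For the HIF group it was -0.62 to -0.36. In the authors' deposited table, none of the 36 genes passed 0.05 in this comparison; the adjusted p given there was 0.15 for Car9, 0.079 for P4ha1, 0.11 for Pdk1 and 0.14 for Fam162a. Markers of other cells moved alongside. Of 20 genes of stromal cells, 8 were in the table. Their total was 30.2 and 31.3 CPM in the OP9 libraries of monocytes and 6.92 and 22.9 CPM in the OP9-DLL1 libraries. Pdgfrb among them rose, from 0.0231 and 0.205 CPM to 2.89 and 4.23 CPM, and Vcam1 went from 2.08 and 1.93 CPM to 2.05 and 1.90 CPM. Without Pdgfrb and Vcam1 the total was 28.1 and 29.1 CPM and then 1.97 and 16.7 CPM. Platelet and megakaryocyte genes, 2 of 6 in the table, summed to 113 and 195 CPM and to 22.2 and 12.7 CPM. Macrophage genes, 9 of 10 in the table, summed to 754 and 516 CPM and to 414 and 401 CPM. The part of these cells in the 4 changes was not tested.

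In GENCODE M21 the 4 genes, all coding for proteins, lie at chr4:43506966-43513729 (Car9), chr10:59323296-59373304 (P4ha1), chr2:71873224-71903858 (Pdk1) and chr16:36043761-36071594 (Fam162a) of mm10. Sequence before the start of each is shown because these 4 genes passed the test and are known HIF targets. They come from RefSeq, assembly GRCm38.p6, and are written 5′ to 3′ on the strand of the gene, with ACGTG and GCGTG on either strand (so also CACGT and CACGC) in capitals. The stretches are the last 30 bases before the start for Car9 (chr4:43506996-43507025, plus strand), 250 bases for P4ha1 and Pdk1, and 123 bases for Fam162a. Those of the latter 3 are chr10:59323046-59323295 on the plus strand for P4ha1, chr2:71872974-71873223 on the plus strand for Pdk1 and chr16:36071562-36071684 on the minus strand for Fam162a.
Car9: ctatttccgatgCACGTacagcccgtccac
P4ha1: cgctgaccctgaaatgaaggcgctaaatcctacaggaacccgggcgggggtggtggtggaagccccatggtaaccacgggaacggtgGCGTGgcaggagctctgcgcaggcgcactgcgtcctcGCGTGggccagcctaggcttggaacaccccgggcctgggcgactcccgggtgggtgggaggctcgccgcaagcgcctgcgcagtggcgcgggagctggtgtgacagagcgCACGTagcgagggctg
Pdk1: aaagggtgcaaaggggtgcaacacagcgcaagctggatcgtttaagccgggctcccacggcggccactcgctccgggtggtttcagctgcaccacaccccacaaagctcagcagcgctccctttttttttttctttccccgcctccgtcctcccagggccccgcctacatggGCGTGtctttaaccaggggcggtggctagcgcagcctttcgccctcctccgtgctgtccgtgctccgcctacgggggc
Fam162a: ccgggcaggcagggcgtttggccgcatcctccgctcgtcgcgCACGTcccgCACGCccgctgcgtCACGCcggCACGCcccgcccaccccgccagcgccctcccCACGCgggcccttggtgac

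In the 250 bases before the RefSeq start, Car9 held 1 such core, 18 bases before that start, P4ha1 held 3, Pdk1 held 1 at the start shown, and Fam162a held 6, of which 5 are in the stretch printed. The last 60 of these bases of Car9, the core among them, and the last 33 of Fam162a lie inside the genes as GENCODE draws them. The gene that rose and the genes that fell thus both had the core. Of the 36 genes, 33 had an entry in the RefSeq table of promoters, and 30 of these (90.9%) had the core before at least 1 start, 18 of 21 in the glycolysis group and 12 of 12 in the HIF group. Gpi1, Tpi1 and Fbp1 had none. Among all 9072 genes of the deposited table with an entry the share was 61.7%, and among all 32851 single starts it was 38.6%. A match describes letters and does not show that a factor binds there.

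Close behind the 4 stood several genes that were lower in both OP9-DLL1 libraries of monocytes without passing. Hif1a went from 132 and 133 CPM to 94.2 and 84.1 CPM (log2 fold change -0.57 ± 0.15, limma-trend adjusted p = 0.054). Tpi1 went from 365 and 312 CPM to 249 and 250.1 CPM (-0.43 ± 0.11, limma-trend adjusted p = 0.051), and Ldha from 1526 and 1481 CPM to 1146 and 1162 CPM (-0.38 ± 0.10, limma-trend adjusted p = 0.06). Adjusted p-values in the authors' deposited table were 0.053 for Hif1a, 0.073 for Tpi1 and 0.081 for Ldha. Bnip3 had a log2 fold change of -0.55 ± 0.18 and its relative Bnip3l one of 0.58 ± 0.19, with limma-trend adjusted p = 0.11 for both. Slc2a1, Hk2 and Gapdh had log2 fold changes of 0.15 ± 0.19, -0.21 ± 0.12 and -0.14 ± 0.12, and Vegfa, which had 2 reads in one OP9-DLL1 library, one of -2.31 ± 1.11 (limma-trend adjusted p from 0.27 to 0.71 for the 4).

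In cMoPs no gene of the list passed on OP9-DLL1 against OP9 by limma-trend, where 0.770% of all genes did. At an unadjusted p under 0.05, 1 gene was higher and 2 were lower, against 9.47% of all genes in both directions. voom weights on the recovered reads also gave 0 genes, and voom with sample quality weights gave 1, Car9. Car9 went from 16.0 and 14.6 CPM to 26 and 21.8 CPM, with no overlap and a log2 fold change of 0.64 ± 0.19 (limma-trend adjusted p = 0.26). In the authors' deposited table it was the single gene of the list to pass, with a log2 fold change of 0.63 and an adjusted p of 0.048. Its antisense partner Gm12454 was at 1.54 and 2.74 CPM on OP9 and 2.86 and 4.29 CPM on OP9-DLL1, also without overlap. Slc16a3 went from 9.34 and 7.94 CPM to 4.69 and 6.34 CPM (-0.66 ± 0.23, limma-trend adjusted p = 0.35), and Hif1a from 15.2 and 19.2 CPM to 13 and 13.2 CPM (-0.38 ± 0.15, limma-trend adjusted p = 0.44). Of the 36 genes, 9 were wholly higher and 13 wholly lower on OP9-DLL1, against 25.0% and 21.7% of all genes. The median was 0.07 for the glycolysis group and -0.22 for the HIF group. The first was -0.00 under quantile normalization, -0.00 without cMoPs on OP9 replicate 2 and 0.01 without cMoPs on OP9-DLL1 replicate 1. The second was -0.11 without cMoPs on OP9 replicate 1 and -0.10 without cMoPs on OP9-DLL1 replicate 1.

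**Figure D4:**
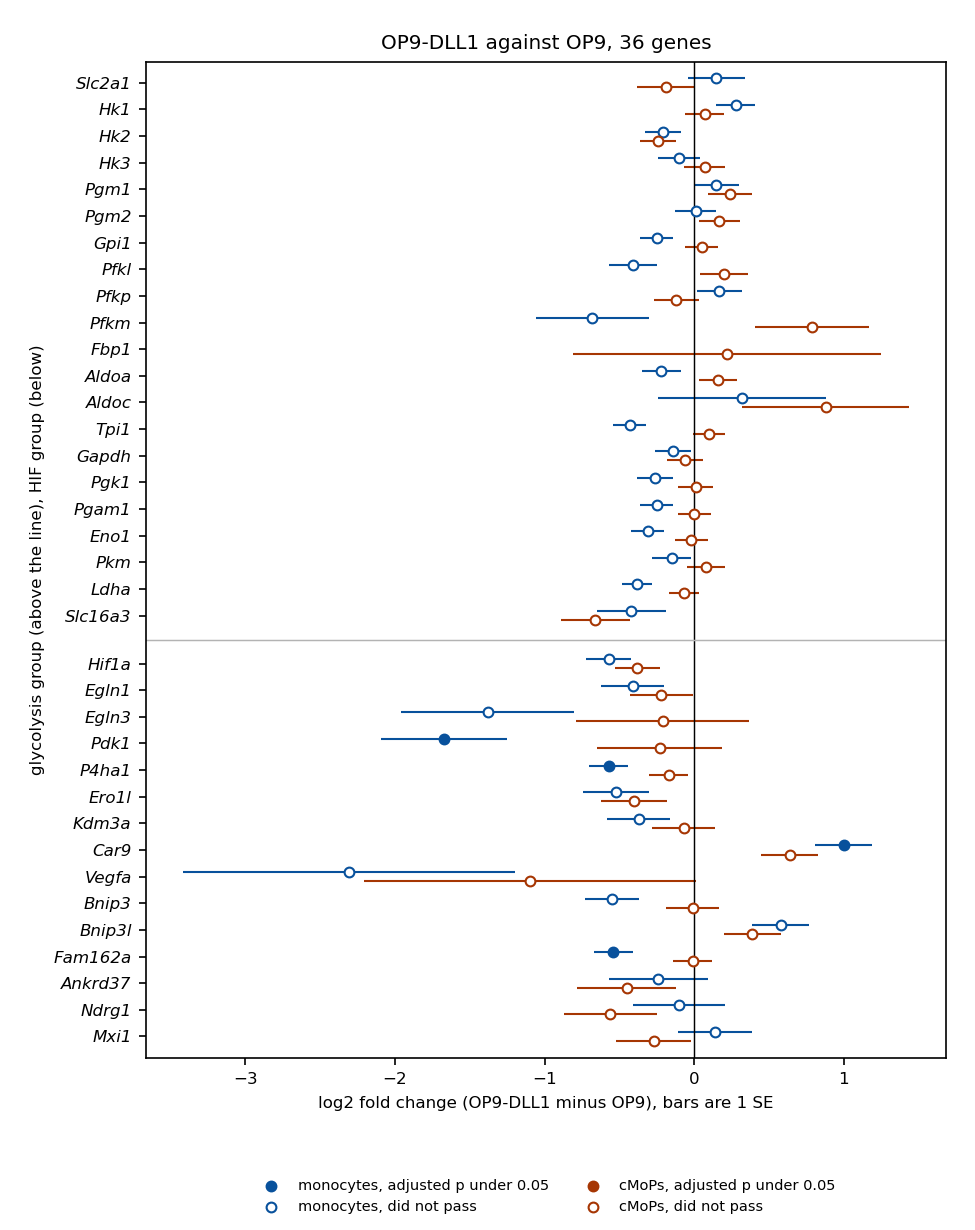
Log2 fold change (OP9-DLL1 minus OP9, horizontal axis) of 36 genes in monocytes (blue) and cMoPs (brown), fitted by limma-trend over 8 libraries, with bars of 1 standard error and filled points for adjusted p under 0.05. Filled points are Car9 at 1.0, P4ha1 at -0.57, Fam162a at -0.54 and Pdk1 at -1.67, all in monocytes. Fbp1 has no point in monocytes, where 2 libraries had 0 reads on OP9-DLL1.

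Whether the 2 cell types responded differently was tested directly. None of the 36 genes passed the test of the difference (cMoP response minus monocyte response) by limma-trend, where 7 of 13374 genes, or 0.0523%, did, and voom gave 0 with and without sample quality weights. At an unadjusted p under 0.05, 5 genes were positive and none negative, against 9.79% of all genes in both directions. The median difference was 0.25 for the glycolysis group and 0.19 for the HIF group, the latter being -0.02 without monocytes on OP9-DLL1 replicate 2. Pfkl, Pfkm and Tpi1 were lower on OP9-DLL1 in both monocyte libraries and higher in both cMoP libraries. The differences were 0.61 ± 0.23, 1.47 ± 0.54 and 0.53 ± 0.16 on the log2 scale (limma-trend adjusted p = 0.44, 0.43 and 0.34). Without monocytes on OP9 replicate 2, which leaves that group without a replicate, the differences were 0.64 for Tpi1, 0.81 for Pfkl and 0.55 for Aldoa. With all libraries the difference for Aldoa was 0.38. The 2 libraries of that group were 365 and 312 CPM for Tpi1, 5185 and 4068 CPM for Aldoa, and 135 and 103 CPM for Pfkl.

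Genes around glycolysis differed between the cell types as well. Of all genes tested, 28.8% were higher and 27.7% lower in cMoPs on OP9, 28.2% and 29.2% on OP9-DLL1, and in monocytes 3.36% rose and 3.03% fell on OP9-DLL1. The counts of the lists that follow stand beside these shares, and several are near them. Of 24 further glycolysis genes 13 were tested, and 6 were higher and 1 lower in cMoPs on OP9, with 8 and 1 on OP9-DLL1. The lower one was Pfkfb4, which makes the activator of phosphofructokinase and was named after its values were seen, at 48.8 to 69.3 CPM in monocyte libraries and 3.12 to 5.76 CPM in cMoP libraries, 13.4-fold lower on OP9 (limma-trend adjusted p = 1.7e-05). Tigar, a phosphatase that lowers the activator of phosphofructokinase, was at 4.72 to 9.90 CPM in monocyte libraries and 44.4 to 51.3 CPM in cMoP libraries, 5.39-fold higher on OP9 (limma-trend adjusted p = 4.1e-06). In monocytes it fell 1.79-fold on OP9-DLL1 (limma-trend adjusted p = 0.018), and Slc16a1 fell 2.10-fold (limma-trend adjusted p = 0.047). Ldhb, the other main lactate dehydrogenase subunit, rose 1.60-fold there (limma-trend adjusted p = 0.041) and was named after its value was seen. G6pc3, a glucose 6-phosphatase important in neutrophils, was at 27.1 to 35.3 CPM and 85.4 to 105 CPM, 2.76-fold higher in cMoPs on OP9. Of the genes that take pyruvate into mitochondria, 14 of 15 were tested. In cMoPs 6 were higher and 1 lower on OP9, with 7 and 2 on OP9-DLL1. Dlat, a subunit of pyruvate dehydrogenase, was at 10.7 and 11.1 CPM for monocytes on OP9, 17.8 and 27.2 CPM on OP9-DLL1, with 36 to 59.0 CPM across the cMoP libraries, and rose 2.02-fold in monocytes on OP9-DLL1 (limma-trend adjusted p = 0.023). Pdk3, a kinase that switches the complex off, rose 2.58-fold (limma-trend adjusted p = 0.049), and no other gene of that list passed there; Pdk3 was named after its value was seen. Pdhb, another subunit, and Pdp2, the phosphatase that switches the complex on, were 1.66-fold and 1.94-fold higher in cMoPs on OP9.

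Genes of the side branches were split. All 9 pentose phosphate genes listed were tested, and 2 were higher and 4 lower in cMoPs on OP9, with 1 and 2 on OP9-DLL1. Taldo1, the transaldolase, was at 2496 to 4093 CPM in monocyte libraries and 1019 to 1317 CPM in cMoP libraries, 2.68-fold lower on OP9 (limma-trend adjusted p = 1.6e-05). Taldo1 and Tkt, the transketolase, also rose in monocytes on OP9-DLL1, by 1.43-fold and 1.36-fold (limma-trend adjusted p = 0.04 and 0.033), and no other gene of that list passed there. Pgd, a dehydrogenase that makes NADPH, was 1.39-fold lower in cMoPs on OP9. Of 11 glycogen genes tested of 12, 4 were higher and 4 lower in cMoPs on OP9, with 1 and 4 on OP9-DLL1. Pygl, the glycogen phosphorylase, went from 90.8 to 151 CPM in monocyte libraries to 22.9 to 36.1 CPM in cMoP libraries, 3.88-fold lower on OP9 (limma-trend adjusted p = 5.5e-05), and Ugp2, which serves glycogen synthesis, was 2.31-fold lower. In monocytes 1 glycogen gene passed on OP9-DLL1, the glycogenin gene Gyg, which rose 1.68-fold (limma-trend adjusted p = 0.0073) and was named after its value was seen.

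Among 10 tested regulators of HIF, of 13 listed, 1 was higher and 5 lower in cMoPs on OP9, and 0 and 5 on OP9-DLL1. Arnt, the partner of Hif1a, was at 21 to 28.1 CPM in monocyte libraries and 10.7 to 13 CPM in cMoP libraries, 2.01-fold lower on OP9 (limma-trend adjusted p = 0.00038). Vhl and Elob, parts of the ligase that removes HIF, were 1.46-fold and 1.74-fold lower. Cul2, of the same list, went the other way, at 8.70 to 22.5 CPM in monocyte libraries and 24.6 to 32.7 CPM in cMoP libraries. Eloc, at 146 to 201 CPM and 176 to 202 CPM, and Rbx1, at 494 to 685 CPM and 464 to 520.3 CPM, overlapped over all libraries. Cul2, Eloc and Rbx1 were named after their values were seen. Of 40 further HIF targets 32 were tested, and 10 were higher and 14 lower in cMoPs on each stroma. Angptl4, a secreted inhibitor of lipoprotein lipase, was at 0.369 to 1.13 CPM in monocyte libraries and 27.7 to 30.5 CPM in cMoP libraries, 25.5-fold higher on OP9 (limma-trend adjusted p = 1.8e-06). Tfrc, the transferrin receptor, was 11.2-fold higher and Mif, a cytokine, 4.88-fold higher. In monocytes 2 of these 32 genes rose on OP9-DLL1, against 3.36% of all genes, and 4 fell, against 3.03%. The chemokine receptor gene Cxcr4 rose 3.63-fold and Ppfia4 rose 1.96-fold (limma-trend adjusted p = 0.024 and 0.015). Angptl4 fell 2.29-fold, Tfrc 2.30-fold, Mif 1.40-fold and Rbpj, a DNA-binding partner of Notch, 2.56-fold (limma-trend adjusted p = 0.032, 0.024, 0.05 and 0.0027, that of Mif being under the threshold before rounding). Cxcr4, Ppfia4 and Rbpj were named after their values were seen.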

How the data were processed

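RNA was measured in 8 bulk libraries made with a SMARTer kit, which does not mark strand, in 4 groups of 2. The submitters' processing notes name STAR 2.7.9a, Salmon 1.5.2, featureCounts 2.0.3 with Subread, bcl2fastq, limma and edgeR, and mouse build mm10. The order of the steps, the annotation and the filter were not given in these sources. The authors deposited log2 CPM values per gene and library, with log2 fold changes and adjusted p-values of their own comparisons. All values were whole multiples of 1 read once an offset of 0.5 reads was allowed for (100% within 0.001), so CPM and reads were recovered without the offset.

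Of 13430 entries, 42 repeats of an identifier were dropped. limma 3.58.1 (R 4.3.3) with a mean-variance trend was fitted to the deposited log2 values of the 13374 genes that reached 1 CPM in 2 or more libraries (14 did not), with 1 mean per group and 4 residual degrees of freedom. Tests were two-sided, adjusted by Benjamini-Hochberg over all genes tested at 0.05, and the code was first tested on simulated data. Fold changes are differences of mean deposited log2 values, and for genes with few reads they can differ from the ratio of mean CPM. Positions and exonic lengths come from GENCODE M21 and promoters from RefSeq; at most 30 bases of a UTR are printed.

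The genes and lists were chosen with earlier results of these data known. Every listed gene could be named; values in each library are given for genes that passed with both groups apart, and for Slc2a1, Hk2, Gapdh, Ldha, Hif1a and Vegfa; up to 3 genes by smallest adjusted p were named from each neighbouring list. Filters, scaling, pseudocount, trend, voom weights, the replicate block and leaving out each library were varied in 18 alternatives.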

Additional observations from a re-analysis of the deposited data

How the results depend on the processing

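The count of genes past the threshold for the monocyte response to OP9-DLL1, 4 in the reported fit, depended on the settings. It was 7 with a filter at 5 CPM and with libraries centred on their medians, and 0 without the mean-variance trend, with only the 4 libraries of the comparison, and with voom and sample quality weights; it ran from 1 to 13 when 1 library was left out. For cMoPs voom with sample quality weights gave 1 gene in place of 0. The difference of the responses gave 0 to 3 genes when 1 library was left out. Between cell types the counts of 26 on OP9 and 30 on OP9-DLL1 stayed between 24 and 32 with no library left out. Of these genes, 19 and 22 kept their call under every setting in which they were tested. Aldoc and Egln3 were not tested with the filter at 5 CPM. With the replicate number as a replicate block, the counts were 7 (2 higher, 5 lower) in monocytes, 0 in cMoPs, 0 for the difference, 27 and 31 between cell types. Same-numbered libraries hardly deviated together (correlations of 0.023 to 0.089), and the labels give no shared source, so the numbers were not taken as pairs. The median of the HIF group between cell types on OP9-DLL1, 0.09, was -0.64 with the filter at 5 CPM, where fewer genes were tested, and -0.44 to 0.31 when 1 library was left out. That of the difference of responses, 0.19, was -0.02 to 0.30. Causes were not tested. No direction of a called gene reversed. Depth limited Vegfa, Egln3, Pfkm and Fbp1, which had few or no reads in some libraries.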
